A study of Homo sapiens with 24 samples.

Results

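The cytoplasm of U2OS cells treated with sodium arsenite (NaAsO2) was split by centrifugation into a soluble and an insoluble fraction, and the RNA of both fractions was sequenced. U2OS is a human osteosarcoma line, and NaAsO2 is an inducer of oxidative stress under which stress granules (SGs) form. The comparison below concerns the 3 insoluble (Ars_insoluble) and the 3 soluble (Ars_soluble) libraries of cells given 500 µM NaAsO2 for 60 min, 6 of the 24 libraries of the series, paired by replicate number because each lysate gave both fractions. Their groups come from the labels alone. For comparison, the fractions of unstressed cells (Ctrl, 0.12% DMSO for 2 h) and of cells given 6 µM RK-33 for 1 h before NaAsO2 (Combo, RK_Ars in the labels) were used, with 3 lysates each. The remaining libraries of the 24, of cells given 6 µM RK-33 without NaAsO2, entered the common normalisation and fit but no comparison. RK-33 is a small molecule inhibitor of the DEAD-box RNA helicase DDX3. Whether the cells given NaAsO2 alone also received DMSO is not given in the sources used here. Nuclei were removed by a slow spin, and the pellet of a faster spin is the insoluble fraction, which holds SGs and processing bodies (P-bodies) along with anything else that sediments, such as large polysomes and organelles. All groups are 1 cell line, and the labels do not name separate cultures, although per the methods the experiment was done 3 times under each condition, so the p-values measure the spread between these libraries.

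SGs are assemblies of messenger RNAs and proteins that appear when translation initiation stalls, and P-bodies hold RNAs together with the decapping and decay machinery. In arsenite-treated U2OS cells, long and poorly translated mRNAs are known to be over-represented in SGs, whereas short housekeeping mRNAs are known to be depleted. NORAD, a cytoplasmic long non-coding RNA (lncRNA) that binds Pumilio proteins, and the mRNA of the scaffold protein AHNAK are used as reference RNAs for SGs.

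NORAD lies on the minus strand of GRCh38 at chr20:36045618-36051018. Its transcript of 5401 nt held 15 copies of the Pumilio motif TGTANATA on the RNA's own strand, rank 4 by density among 8454 tested genes with a transcript of at least 3000 nt, where the median was 0 copies. Only 0.0710% of those transcripts held as many copies. The first 5 sites from the 5′ end are shown with their flanks, since NORAD is among the 5 RNAs with the smallest adjusted p for a shift towards the insoluble fraction relative to unstressed cells. The capitals mark the motif, and the letters are those of the genome.
NORAD, chr20:36050182-36050211: tggaaggcctgTGTATATAatatgaaaaag
NORAD, chr20:36049803-36049832: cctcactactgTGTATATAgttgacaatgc
NORAD, chr20:36049702-36049731: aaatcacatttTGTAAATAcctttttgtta
NORAD, chr20:36049501-36049530: ttacttatctgTGTATATAgtgtacataaa
NORAD, chr20:36049492-36049521: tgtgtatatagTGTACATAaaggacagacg
The last 2 of these sites lie side by side, and their windows overlap.

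The libraries held between 10968059 and 18005839 fragments over exons and introns, of which introns took 13.7% to 24.3%. The third insoluble library stood apart from the other two. The deviation of its genes from the mean of insoluble libraries 1 and 2 correlated with GC content at a Spearman's rho of 0.73 across genes. For insoluble libraries 1 and 2 rho was -0.75 and -0.64, but the mean they were set against includes library 3. The log2 ratio of insoluble to soluble had a rho with GC content of 0.0048, 0.082 and 0.52 in lysates 1, 2 and 3. The counts of insoluble library 3 differed from those of insoluble libraries 1 and 2 by a chi-square of 142 and 130 per degree of freedom. This was 5.78 between libraries 1 and 2 and 3.21 to 4.59 between the soluble libraries. The signal recognition particle RNA RN7SL1 took 5.79% of the exon counts of insoluble library 3, against 0.426% and 0.798% in the other insoluble libraries and 10.5% to 13.1% in the soluble ones. The log2 ratios of insoluble to soluble had a Pearson r of 0.97 between lysates 1 and 2, but of 0.71 and 0.74 between lysate 3 and those, across 10101 genes that are not independent of each other. Counts are therefore also given without insoluble library 3, in which case the contrast rests on lysates 1 and 2, as are the values of the genes that the results turn on. The part of library quality in any result was not tested.

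The osteoblast lineage markers were present only in part. SPARC, VIM, COL1A1 and RUNX2 were all detected, IBSP was at 0, and COL1A2 and BGLAP were near 0. Summed, the 10 markers reached 3848 to 4018 counts scaled to library size (CPM) in soluble and 2659 to 7668 CPM in the insoluble libraries. The 10 markers of epithelial, blood, endothelial and liver cells summed to 15.8 to 17.1 CPM in soluble and 26.1 to 36.8 CPM in the insoluble libraries, with VWF the highest in the insoluble fraction. As a sign of nuclear RNA, the 11 nuclear lncRNAs, mostly MALAT1, summed to 6042 to 8439 CPM in soluble and 2247 to 4098 CPM in the insoluble libraries. The part of such RNA in the results was not tested. In bulk RNA, fewer cells with granules and less RNA per cell cannot be told apart.

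The question of the main comparison was which RNAs were relatively more abundant in the insoluble than in the soluble cytoplasm of the same stressed cells. Large mRNAs that encode scaffold, ubiquitin ligase and chromatin proteins rose in the insoluble fraction, and short mRNAs that encode ribosomal, respiratory chain and histone proteins fell. Of 17666 genes that averaged 1 CPM or more, 2431 were higher (13.8%) and 2811 were lower (15.9%) at an adjusted p under 0.05 in edgeR's quasi-likelihood test and a log2 fold change of at least 1 in size. Without insoluble library 3, 2037 were higher and 2801 lower. Of these calls, 1675 higher and 2284 lower genes were shared with the full set, and 0 were called in opposite directions, while 1283 genes were called only with all libraries and 879 only without that library. In 2294 of the 2431 higher genes all insoluble libraries lay above all soluble ones, and in 2736 of the 2811 lower genes all lay below, as they did for 4525 and 5067 of all tested genes. Values are TMM-normalised CPM, and changes are log2 fold changes with their standard error (SE) unless stated. They are relative to the rest of the library, whose median gene lay at 0.014, and say nothing of the absolute amount of RNA in a fraction.

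AHNAK, which encodes a giant scaffold protein, is at chr11:62433542-62556235 and showed one of the largest changes. It was at 935, 921 and 744 CPM in soluble libraries 1, 2 and 3 and at 13475, 15416 and 17416 CPM in insoluble libraries 1, 2 and 3. Every insoluble value was above every soluble value, with a log2 fold change of 4.15 ± 0.21 and an adjusted p of 4.95e-09, or 3.95 without insoluble library 3. Its relative AHNAK2 was at 80.3, 85.9 and 64.0 CPM in soluble and at 1942, 2371 and 2539.6 CPM in insoluble libraries (log2 fold change 4.90 ± 0.20, adjusted p = 3.06e-09). NSD1, a histone H3 lysine 36 methyltransferase, was at 100.4, 99.9 and 80.4 CPM in soluble and at 771, 770.2 and 623 CPM in insoluble libraries, a change of 2.95 ± 0.13. Among the lowest was RPS13, a protein of the small ribosomal subunit, at 322, 315 and 370.3 CPM in soluble and at 40.3, 45.7 and 36.0 CPM in insoluble libraries (log2 fold change -3.04 ± 0.14, adjusted p = 3.46e-09). TXN, which encodes thioredoxin, was at 95.7, 92.1 and 109.8 CPM in soluble and at 12.2, 14.1 and 8.05 CPM in insoluble libraries, a change of -3.12 ± 0.18. In all 5 genes the fractions did not overlap.

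**Figure D1:**
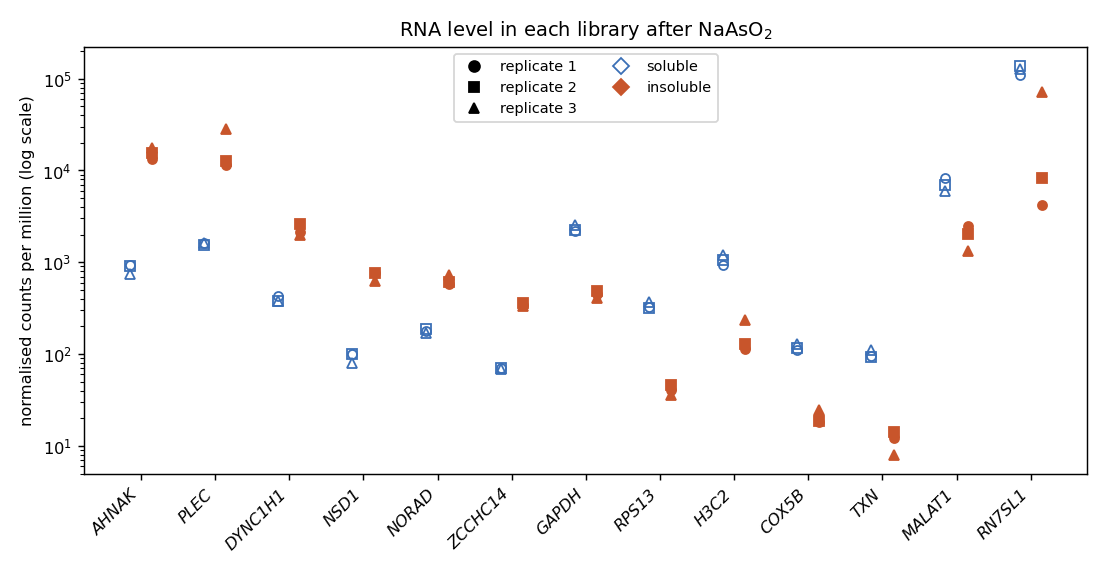
TMM-normalised CPM (log axis) of 13 RNAs in each NaAsO2 library, with open blue symbols for soluble and filled orange symbols for insoluble libraries and 1 symbol shape per replicate. AHNAK lay at 744 to 935 CPM in soluble and at 13475 to 17416 CPM in insoluble libraries, and RN7SL1 of insoluble library 3 lies far above that of the other insoluble libraries.

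The other genes with the smallest adjusted p among the higher ones were MAP1A, a microtubule-associated protein (3.08 ± 0.13), RNF213, a large ubiquitin ligase (2.84 ± 0.13), TRIO, a guanine nucleotide exchange factor (2.83 ± 0.13), ZCCHC14 (2.31 ± 0.11), AKAP13, an anchoring protein of protein kinase A (2.51 ± 0.12), and SEC16A, a scaffold of endoplasmic reticulum (ER) exit sites (2.71 ± 0.14). Without insoluble library 3 they lay between 2.31 and 3.00. Among the lower genes the smallest adjusted p belonged to RPS21 (-2.78 ± 0.12), RPS13, RPL12 (-2.93 ± 0.14), the spliceosomal Sm protein SNRPD2 (-2.95 ± 0.14), the snoRNA host SNHG3 (-2.55 ± 0.13), the peroxiredoxin PRDX6 (-2.47 ± 0.12), RPS29 (-2.35 ± 0.12) and COX5B of respiratory complex IV (-2.57 ± 0.13). The largest increases also included the filaggrin gene FLG (4.56 ± 0.26), TNRC18 (3.69 ± 0.28) and the ubiquitin ligase HERC2 (3.57 ± 0.18), and the largest decreases included NDUFA4 (-3.21 ± 0.17), the histone genes H2BC4 (-3.30 ± 0.22) and H2BC11 (-3.23 ± 0.33), and ATP5MK (-3.28 ± 0.24). Also on that list, ENSG00000264577 (-3.23 ± 0.25) and the 7SK pseudogene RN7SKP203 (-3.17 ± 0.37) are non-coding. The size of the 3 largest increases rested on insoluble library 3, though all 3 were also called higher without it. ENSG00000277437 was at 16.3, 8.62 and 252 CPM, MIR3648-1 at 6.61, 4.06 and 88.2 CPM and ENSG00000264063 at 3.09, 1.88 and 56.5 CPM in insoluble libraries 1, 2 and 3, and all lay at or under 1.19 CPM in the soluble libraries. These are short features of chromosome 21, and their fitted changes of 6.12, 5.76 and 4.98 became 3.82, 3.42 and 3.47 without that library.

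Coding length ordered the fractions over its whole range. Among 13444 protein-coding genes, 2.47% of the 1052 with a coding sequence of up to 500 nt were higher in the insoluble fraction and 59.9% were lower. Of the 194 with more than 8000 nt, 69.1% were higher and 1.03% lower. The median log2 fold change went from -1.28 in the shortest to 1.48 in the longest class, and from -1.39 to 1.56 without insoluble library 3. Each lysate showed this order, from -1.34 to 1.60 in lysate 1, from -1.35 to 1.60 in lysate 2 and from -1.16 to 1.28 in lysate 3. Across these genes, which are not independent replicates, Spearman's rho with coding length was 0.55, or 0.61 without insoluble library 3. Unstressed cells showed the same order, with medians of -1.12 and 1.57 in the shortest and longest class, and the median of the difference between treatments lay between -0.23 and 0.057 in every class. Genes called higher had a median coding length of 2766 nt and a median transcript of 5835 nt, against 735 and 1810 nt for genes called lower. Lengths are those of 1 transcript per gene of GENCODE release 44, which need not be the one expressed.

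**Figure D2:**
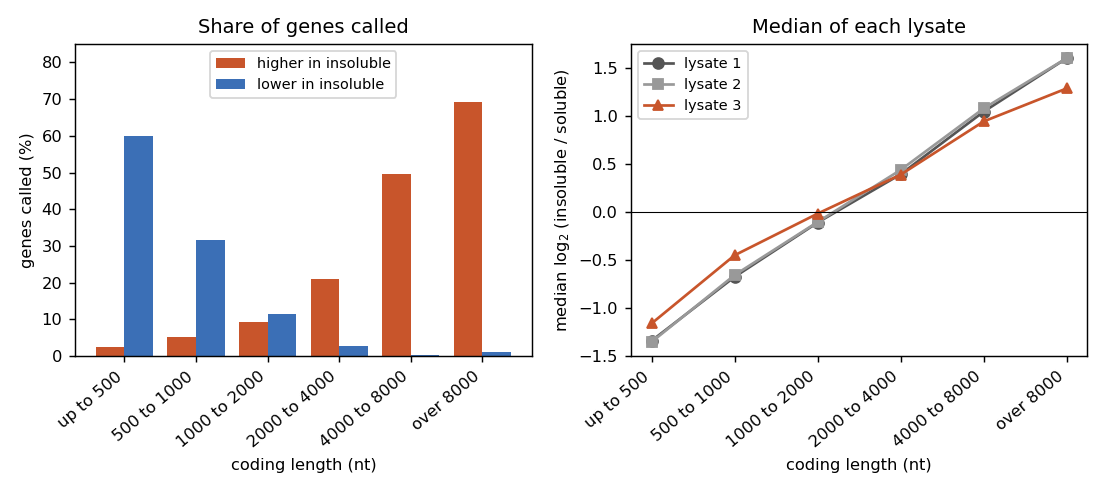
Left, percentage of genes called higher (orange) or lower (blue) in the insoluble fraction after NaAsO2 by coding length in nt. Right, median log2 ratio of insoluble to soluble in the same classes for each lysate. The share called higher climbs from 2.47% to 69.1%, and the median of each lysate climbs across all classes.

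Among the lists of long mRNAs, large scaffold and cytoskeletal linker proteins stood highest together with large ubiquitin enzymes. Of 37 scaffold genes, 27 rose and 0 fell, or 30 and 0 without insoluble library 3, with a median of 1.78, against 0.014 for all genes. The share called higher was 73.0%, against 13.8% of all genes and 69.1% of protein-coding genes with over 8000 nt of coding sequence. The median coding length of the list was 9342 nt. In unstressed cells its median change was 2.07. PLEC, which encodes the linker protein plectin, was at 1625, 1547 and 1616 CPM in soluble and at 11521, 12638 and 28209.8 CPM in insoluble libraries (3.32 ± 0.28). Insoluble library 3 lay far above the other insoluble libraries, and without it the change was 2.92. The actin cross-linkers FLNA (1.46 ± 0.20) and FLNC (1.53 ± 0.20) rose less. The lowest of the list was CENPE, a kinetochore motor, at 169.8, 139.9 and 139 CPM in soluble and at 208, 185 and 64.3 CPM in insoluble libraries, where the value of -0.12 ± 0.25 did not pass the test (adjusted p = 0.699) and was 0.34 without insoluble library 3.

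Of 19 large ubiquitin ligases and deubiquitinases, 18 rose, with a median of 1.87, against 1.95 in unstressed cells. HERC2 was the highest, at 72.2, 61.9 and 65.1 CPM in soluble and at 722, 825 and 816 CPM in insoluble libraries. HUWE1 (1.87 ± 0.16), UBR4 (2.10 ± 0.14) and the deubiquitinase USP9X (2.34 ± 0.16) also rose. The remaining member, TRIP12, missed the fold limit at 0.99 ± 0.20 and was at 1.40 without insoluble library 3, when all 19 were called. In contrast, of 23 genes for ubiquitin, small modifiers and conjugating enzymes, 18 fell and 0 rose, or 20 and 0 without insoluble library 3, with a median of -1.79. UBB, which encodes ubiquitin (-2.27 ± 0.22), and the conjugating enzyme UBE2D3 (-1.62 ± 0.13) were among these. UBE2S (-0.75 ± 0.19) missed the fold limit and UBE2V1 (-0.41 ± 0.23, adjusted p = 0.140) the test.

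Chromatin regulators were likewise higher, with 25 of 35 genes rising and 0 falling, or 27 and 0 without insoluble library 3, and a median of 1.49. In unstressed cells their median was 1.04. Besides NSD1, the methyltransferase genes KMT2D (2.68 ± 0.20) and NSD2 (1.40 ± 0.15) rose. ATRX, a chromatin remodeller with a long coding sequence, was the lowest at -0.56 ± 0.18, or -0.22 without insoluble library 3. Of 23 genes for kinases related to phosphoinositide 3-kinases and for DNA repair, 9 rose and 2 fell, or 11 and 0 without insoluble library 3. The shares with all libraries were 39.1% higher and 8.70% lower, against 13.8% and 15.9% of all genes. PRKDC, the catalytic subunit of DNA-dependent protein kinase, was at 369, 347 and 343 CPM in soluble and at 3378, 3573 and 1823 CPM in insoluble libraries (2.99 ± 0.19). Of its DNA-binding partners, XRCC6 fell (-1.04 ± 0.14) and XRCC5 was at -0.41 ± 0.14. SMG1, a kinase of nonsense-mediated decay, rose (2.02 ± 0.17).

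Subunits of single complexes lay on both sides. In non-muscle myosin II, the 3 heavy chains MYH9 (1.48 ± 0.21), MYH10 (2.30 ± 0.14) and MYH14 (1.93 ± 0.30) rose, and the 5 light chains MYL6 (-1.57 ± 0.18), MYL6B (-2.00 ± 0.22), MYL9 (-1.12 ± 0.14), MYL12A (-2.08 ± 0.14) and MYL12B (-2.78 ± 0.23) fell. All 8 kept their call without insoluble library 3. MYH10 was at 115, 122 and 110.0 CPM in soluble and at 528, 563 and 623 CPM in insoluble libraries, while MYL12B was at 655, 625 and 712 CPM in soluble and at 126, 129.9 and 52.5 CPM in insoluble libraries.

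Of the 23 tested genes of the minus-end-directed motor dynein and of its cofactor dynactin, 3 rose and 11 fell, or 2 and 8 without insoluble library 3. The higher ones were the heavy chains DYNC1H1 (2.49 ± 0.18) and DYNC2H1 (1.39 ± 0.25) and the largest dynactin subunit DCTN1 (1.07 ± 0.23), which was 0.75 without insoluble library 3. DYNC1H1 was at 430.2, 382 and 382 CPM in soluble and at 2133, 2590.2 and 1989.9 CPM in insoluble libraries. The dynein light chains and light intermediate chain DYNLL1 (-2.67), DYNLT3 (-1.82), DYNLT1 (-1.58), DYNLRB1 (-1.19) and DYNC2LI1 (-1.10) fell. So did the dynactin subunits DCTN3 (-2.06), DCTN6 (-1.52) and DCTN4 (-1.02) and the capping proteins CAPZA2 (-1.60), CAPZA1 (-1.52) and CAPZB (-1.25). The 9 others were DYNC1LI1 (-0.87), DCTN2 (-0.76), ACTR10 (-0.73), ACTR1A (-0.66), DYNC1I2 (-0.48), DYNC1LI2 (-0.21), ACTR1B (-0.0064), DCTN5 (0.14) and DYNLL2 (0.57). DYNLL1 and DYNLL2 encode light chains of the same length, 267 nt of coding sequence, on transcripts of 663 and 6807 nt. DYNLL1 was at 164, 157 and 195 CPM in soluble and at 32.3, 31.0 and 18.5 CPM in insoluble libraries, and DYNLL2 at 199.7, 173 and 185 and 217, 219 and 440.0 CPM.

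Cytosolic ribosomal protein mRNAs fell almost as a whole. Of 79, 75 fell and 0 rose, or 76 and 0 without insoluble library 3, with a median of -2.17, or -2.21 without insoluble library 3. The most abundant, RPLP0, was at 1779, 1784 and 2055 CPM in soluble and at 524, 611 and 759 CPM in insoluble libraries (-1.58 ± 0.15). RPL8 (-2.17 ± 0.14), RPLP1 (-2.01 ± 0.25) and RPL32 (-3.35 ± 0.23) fell too. RPL13A did not reach the fold limit (-0.91 ± 0.34), with 399.9, 503 and 1972 CPM in insoluble libraries 1, 2 and 3, of which only the last lay above the soluble values of 1222, 1414 and 1452 CPM, and its change was -1.56 without that library. RPL3 had the smallest change of the list (-0.39 ± 0.15). Ribosomal protein and translation factor mRNAs are known to start with a C followed by a run of pyrimidines, the 5′ terminal oligopyrimidine tract. The first 30 bases of the RNA are shown for the ribosomal protein genes with the smallest adjusted p or largest fold change that the promoter table held, and for 2 elongation factors, as RefSeq gives them on GRCh38, with a start of C and at least 4 pyrimidines in capitals. Where a gene had several listed starts, one that began with such a run was taken.
RPS13, chr11:17077638-17077667, minus strand: CCTTTCgttgcctgatcgccgccatcatgg
RPS21, chr20:62387103-62387132, plus strand: CCTTTCTCTCTCgcgcgcggtgtggtggca
RPS29, chr14:49598681-49598710, minus strand: tggcagcggtggttgtttctgttcggggag
RPL32, chr3:12841536-12841565, minus strand: agcccttgcgcgccaccgtcccttctctct
EEF1A1, chr6:73521003-73521032, minus strand: CTTTTTCgcaacgggtttgccgccagaaca
EEF2, chr19:3985434-3985463, minus strand: CTCTTCCgccgtcgtcgccgccatcctcgg
No start listed for RPS29 or RPL32 began with such a run, and 5.14% of 27305 RefSeq genes had one. Only 63 of the 79 ribosomal protein genes had a listed start, so the share in the list is not given.

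Of 19 mRNAs for translation factors and other products known for the 5′ terminal oligopyrimidine tract, 12 fell, or 10 without insoluble library 3, with a median of -1.40 (-1.02 without insoluble library 3). The elongation factor EEF1A1 was at 6834, 6954 and 7479.8 CPM in soluble and at 2942, 3195 and 4409 CPM in insoluble libraries (-1.03 ± 0.16). NACA, of the nascent polypeptide-associated complex (-2.84 ± 0.20), and NPM1, nucleophosmin (-1.96 ± 0.13), also fell. EEF2 (-0.90 ± 0.15), the poly(A)-binding protein gene PABPC1 (-0.40 ± 0.14) and EEF1D (0.44 ± 0.20) were not called.

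mRNAs for mitochondrial proteins followed. Of 78 respiratory chain subunits encoded in the nucleus, 63 fell and 0 rose (median -2.06), and of 76 mitochondrial ribosomal proteins 57 fell and 0 rose (median -1.44). Without insoluble library 3, 66 and 63 fell. The lowest were ATP5MK, a small subunit of ATP synthase, at 65.1, 69.3 and 76.5 CPM in soluble and at 8.34, 10.00 and 3.72 CPM in insoluble libraries, and MRPS18C (-2.76 ± 0.21). Of the exon bases of MRPS18C, 40.2% lie at positions within exons of other genes. The larger and more abundant subunits ATP5F1B (-0.67 ± 0.15), ATP5F1A (-0.58 ± 0.17), CYC1 (-0.76 ± 0.18) and UQCRC1 (-0.95 ± 0.15) missed the fold limit, as did NDUFS1, the highest of the list (0.29 ± 0.12). Among the abundant mitochondrial ribosomal mRNAs, MRPL51 (-1.87 ± 0.18), MRPL37 (-1.35 ± 0.15) and MRPS16 (-1.15 ± 0.18) fell and MRPL19 was at -0.70 ± 0.19. MRPL46, at under 10 CPM, was the highest at 0.10 ± 0.35 and lay at -0.65 without insoluble library 3.

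Replication-dependent histone mRNAs, which lack a poly(A) tail, showed the lowest median of the lists with more than 3 tested genes, -2.30. Of 41, 40 fell and 0 rose, or 39 and 0 without insoluble library 3, and the exception H2BC6 was at about 1 CPM (-0.40 ± 0.40). H3C2 was at 926, 1049.5 and 1204 CPM in soluble and at 113, 128 and 237 CPM in insoluble libraries (-2.81 ± 0.18). The linker histone H1-2 (-2.30 ± 0.15) and H2BC12 (-2.36 ± 0.13) fell similarly, whereas H1-4 was at 176, 204 and 709.5 CPM in the insoluble libraries, and its change of -1.69 ± 0.29 became -2.25 without library 3. Histone genes are near-identical copies, so unique mapping may split or drop their reads.

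Of 17 tubulin, actin and thymosin genes, 14 fell, or 15 without insoluble library 3. The share that fell was 82.4% with all libraries, against 15.9% of all genes. ACTB was at 9617, 9078 and 10607 CPM in soluble and at 2646, 2757 and 4176 CPM in insoluble libraries (-1.64 ± 0.16). ACTG1 (-1.20 ± 0.12), TUBB (-1.39 ± 0.13) and the actin-sequestering TMSB10 (-2.50 ± 0.23) fell, and TUBB3 was the highest (0.31 ± 0.25, adjusted p = 0.308). Of 32 proteasome genes, 22 fell and 0 rose, with the same counts without insoluble library 3. PSMB3, of the core particle, was lowest (-2.48 ± 0.16), while the regulatory subunits PSMD3 (-0.91 ± 0.11), PSMC3 (-0.75 ± 0.15), PSMD1 (-0.27 ± 0.16) and PSMD2 (0.48 ± 0.17) missed the fold limit or the test. Of 17 glycolytic genes, 6 fell and 1 rose, or 7 and 0 without insoluble library 3. The shares with all libraries were 35.3% lower and 5.88% higher, against 15.9% and 13.8% of all genes. GAPDH was the lowest, at 2218, 2267 and 2568 CPM in soluble and at 455, 489.7 and 404 CPM in insoluble libraries (-2.39 ± 0.14), followed among the abundant ones by LDHA (-1.66 ± 0.14) and ENO1 (-1.26 ± 0.16). PKM was at -0.54 ± 0.20. Hexokinase HK2 rose (1.12 ± 0.17) but stood at the limit without insoluble library 3 (1.00), when 0 of the list were called higher.

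**Figure D3:**
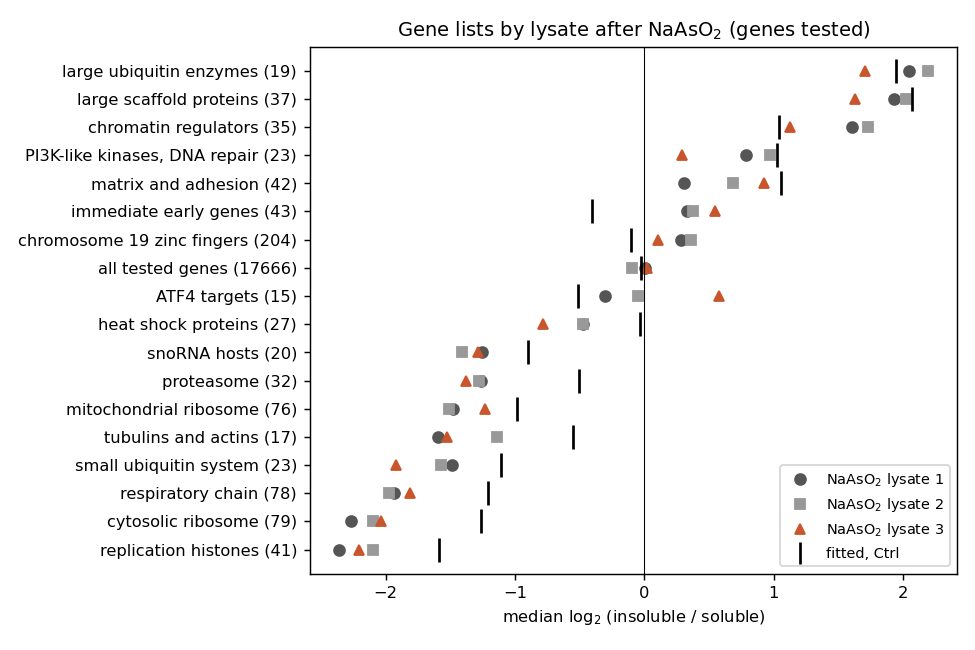
Median log2 ratio of insoluble to soluble over the tested genes of 17 lists and over all tested genes, for each NaAsO2 lysate (symbols) and as fitted for unstressed cells (black bars), with the number of genes tested in parentheses. Lysate medians of replication histones lie between -2.36 and -2.10, and those of large ubiquitin enzymes between 1.70 and 2.19.

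Thioredoxin and the other redox genes fell or were not called, with 1 exception. Of 24, 11 fell and 1 rose, and without insoluble library 3 15 fell. The shares with all libraries were 45.8% lower and 4.17% higher, against 15.9% and 13.8% of all genes. TXN, ferritin light chain FTL (-2.25 ± 0.15), PRDX1 (-1.61 ± 0.14) and SOD1 (-1.57 ± 0.15) fell. Thioredoxin reductase TXNRD1, with a coding sequence of 1947 nt against 315 nt in TXN, rose (1.21 ± 0.11), from 223, 215 and 220.3 CPM in the soluble to 518, 534 and 467 CPM in the insoluble libraries. The metal-binding metallothioneins MT2A (-1.53 ± 0.15), MT1E (-1.55 ± 0.14) and MT1X (-1.89 ± 0.17) fell, and 4 of the 5 tested did in all, and the zinc exporter SLC30A1 was at -0.11 ± 0.17.

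The mRNAs of secreted and membrane proteins, which are translated at the ER, did not move as 1 group. Of 42 matrix and adhesion genes, 14 rose and 7 fell, or 13 and 5 without insoluble library 3, with a median of 0.75 (0.43 without insoluble library 3). The share that rose was 33.3% with all libraries, against 13.8% of all genes. The share that fell, 16.7%, was near the 15.9% of all genes. COL12A1 (1.69 ± 0.19), COL4A2 (1.46 ± 0.26) and COL7A1 (2.49 ± 0.33) rose, and the tetraspanin CD63 fell (-1.73 ± 0.16). COL1A1 was at 1178, 1485 and 7944 CPM in insoluble libraries 1, 2 and 3 and at 1061, 1225 and 965 CPM in the soluble libraries, and its value of 1.09 ± 0.45 (adjusted p = 0.0525) was 0.21 without the last of these. Fibronectin, FN1, was at 0.24 ± 0.18 (adjusted p = 0.275). Of 33 ER translocation and chaperone genes, 17 fell and 0 rose, or 14 and 0 without insoluble library 3. The share that fell was 51.5% with all libraries, against 15.9% of all genes. SEC61G of the translocon (-2.59 ± 0.16) and the calcium-binding chaperone CALR (-1.30 ± 0.22) fell, while CANX (-0.74 ± 0.13), P4HB (-0.22 ± 0.17), HSPA5 (0.13 ± 0.16) and HYOU1 (0.53 ± 0.20) did not pass both limits. Of 27 vesicle coat genes, 2 rose, the clathrin heavy chain CLTC (1.09 ± 0.23) and SEC16A, and 8 fell, or 2 and 7 without insoluble library 3, with SEC13 the lowest (-1.66 ± 0.14). With all libraries the shares were 7.41% higher and 29.6% lower, against 13.8% and 15.9% of all genes. COPA (0.41 ± 0.16) and ARF3 (-0.31 ± 0.14) were not called.

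RNAs used as references for SGs were looked at one by one. NORAD was at 178, 187 and 169.6 CPM in soluble and at 583, 608 and 734 CPM in insoluble libraries 1, 2 and 3. It rose in each lysate, with 1.84 ± 0.12 (adjusted p = 1.43e-08) and 1.70 without insoluble library 3. AHNAK, DYNC1H1, PEG3 (2.71 ± 0.17), ZNF704 (1.52 ± 0.13) and the cell cycle kinase CDK6 (1.16 ± 0.18) rose as well. Of the exon bases of PEG3, 50.9% lie at positions within exons of other genes, and there it cannot be told apart from them where reads carry no strand. POLR2A was at 0.73 ± 0.14 and missed the fold limit. The transferrin receptor mRNA TFRC was at 0.15 ± 0.18 (adjusted p = 0.501), and GAPDH fell. The count was thus 6 higher and 1 lower of 9, also without insoluble library 3. That is 66.7% higher, against 13.8% of all genes. The median of the 9 was 1.52 after NaAsO2 and already 1.17 in unstressed cells, where AHNAK was at 3.87. The median difference between treatments was 0.29, with 3 of the 9 called towards insoluble and 2 towards soluble. Of all genes, 4.06% and 4.52% were called in these directions.

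Of 24 mRNAs that encode SG proteins themselves, 2 were higher and 3 lower, with a median of -0.25, and 79.2% were not called, against 70.3% of all genes. Without insoluble library 3, 3 were higher and 0 lower, with a median of 0.0060. EIF4G1, a scaffold of the cap-binding complex, rose (1.74 ± 0.16), and its relative EIF4G2 fell (-1.11 ± 0.14). The helicase mRNA DDX3X was at 521, 449 and 499 CPM in soluble and at 549.8, 556 and 226 CPM in insoluble libraries (-0.24 ± 0.21, adjusted p = 0.333), and the granule nucleator mRNA G3BP1 was at -0.053 ± 0.13 (adjusted p = 0.751). Of 42 mRNAs of P-body and decay proteins, 9 rose and 10 fell, with a median of -0.25, or 13 and 9 with a median of 0.11 without insoluble library 3. With all libraries the shares were 21.4% higher and 23.8% lower, against 13.8% and 15.9% of all genes. AGO2 (1.18 ± 0.14), CNOT1 (1.37 ± 0.19), SMG1 and TNRC6C (2.43 ± 0.13), which encode an Argonaute, the scaffold of the CCR4-NOT deadenylase, a kinase and a GW182 protein, rose. AGO1 was at 0.66 ± 0.12. LSM3, a small protein of the LSM ring, was the lowest (-2.62 ± 0.32), with -2.02 without insoluble library 3.

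Genes that the study names for their stress response or as hosts of circular RNAs were chosen on these samples, so their direction is not independent evidence. Of the 15 tested, 4 rose, NORAD, CREBBP (1.96 ± 0.12), ARID1A (1.87 ± 0.15) and MGA (1.48 ± 0.18), and 0 fell, or 6 and 0 without insoluble library 3. The share that rose was 26.7% with all libraries, against 13.8% of all genes. The counts here are those of the linear gene. The values of the 11 others were 0.88 for MAP3K4, 0.83 for MAN1A2, 0.76 for ZNF609, 0.71 for KANSL1 and -0.86 for PALS2 (formerly MPP6). ATF3 was at -0.44 and DNAJB1 at -0.48, and HSPA6, HSPA1B, G3BP1 and DDX3X lay at 0.62, 0.076, -0.053 and -0.24. HSPA6 averaged only 5.84 CPM over the NaAsO2 libraries, and its value was 0.31 without insoluble library 3. Of the exon bases of HSPA1B, 36.6% lie at positions that are also within exons of other genes on either strand.

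RNAs transcribed by RNA polymerase III were lower in the insoluble fraction. RN7SL1, the RNA of the signal recognition particle, was at 110775, 137222 and 127099 CPM in soluble and 4170.4, 8280.4 and 71747 CPM in insoluble libraries 1, 2 and 3. Its change of -3.32 ± 0.61 (adjusted p = 2.84e-04) became -4.40 without insoluble library 3. Its near-identical copy RN7SL3 followed (-3.11 ± 0.60 and -4.19), and reads of the copies may be split or dropped. RMRP, the RNA of RNase MRP, was at 5510.0, 6619 and 5763 CPM in soluble and at 2456, 2517 and 2239.9 CPM in insoluble libraries and fell by less, with -1.31 ± 0.15. These were the 3 tested of the 13 listed genes in the count table.

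Nuclear lncRNAs gave both directions. MALAT1, a lncRNA of nuclear speckles, was at 8229, 6986 and 5983 CPM in soluble and at 2472, 2041 and 1332 CPM in insoluble libraries and fell (-1.89 ± 0.17). NEAT1, the scaffold of paraspeckles, rose (1.51 ± 0.18) from 328, 384 and 285 to 989, 837 and 1008 CPM. TUG1 (0.44 ± 0.16) and SNHG14 (0.79 ± 0.12) were not called. Of 20 hosts of small nucleolar RNAs, 13 fell and 0 rose, or 16 and 0 without insoluble library 3, SNHG3, SNHG16 (-1.19 ± 0.14), SNHG29 (-1.72 ± 0.12), TAF1D (-1.38 ± 0.13) and SNHG9 (-2.56 ± 0.47) among them, and SNHG5, at under 6 CPM, was at 0.018 ± 0.34. Of 14 cytoplasmic lncRNAs, 1 rose, NORAD, and 3 fell, or 1 and 6 without insoluble library 3, with MIR22HG lowest (-1.26 ± 0.16). With all libraries the shares were 7.14% higher and 21.4% lower, against 13.8% and 15.9% of all genes. CYTOR (-0.063 ± 0.12) and OIP5-AS1 (0.26 ± 0.12) were not called.

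Of 43 immediate early genes, 6 rose and 1 fell, or 5 and 0 without insoluble library 3, and 83.7% were not called, against 70.3% of all genes, with a median of 0.40. The transcription factor FOSL2 was at 381, 364 and 362 CPM in soluble and at 1012, 1128 and 1374 CPM in insoluble libraries (1.66 ± 0.13), and MCL1 (1.19 ± 0.16) and TNFAIP3 (1.69 ± 0.16) rose, whereas the chemokine mRNA CXCL8 fell (-1.01 ± 0.20). The matricellular CCN1 (0.92 ± 0.12) and CCN2 (0.35 ± 0.12) missed the fold limit. Of 27 heat shock genes, 7 fell and 0 rose, or 6 and 0 without insoluble library 3, and 74.1% were not called, against 70.3% of all genes, with a median of -0.48. The share that fell was 25.9%, against 15.9% of all genes. The small chaperones HSPE1 (-2.28 ± 0.15) and HSPB1 (-1.64 ± 0.19) fell, while HSPA8 (-0.84 ± 0.16), HSP90AB1 (-0.45 ± 0.14), HSP90AA1 (-0.44 ± 0.16) and HSPA6 (0.62 ± 0.21) were not called. HSPA6 averaged only 5.84 CPM and lay at 0.31 without insoluble library 3. Of 15 targets of the integrated stress response factor ATF4, 1 rose, VLDLR (1.00 ± 0.14), and 0 fell, with the same counts without insoluble library 3. Of the list, 93.3% were not called, against 70.3% of all genes. ATF4 itself (-0.18 ± 0.19), SLC3A2 (-0.11 ± 0.20), PHGDH (-0.41 ± 0.20) and XPOT (-0.18 ± 0.15) did not pass the test, and CEBPG (-0.91 ± 0.13) missed the fold limit. ATF4 was at 306, 303 and 695 CPM in insoluble libraries 1, 2 and 3 and at 454, 447 and 461 CPM in the soluble ones, and its value without library 3 was -0.57.

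Of 204 zinc finger genes of chromosome 19, 30 rose (14.7%, against 13.8% of all genes) and 4 fell, or 37 and 6 without insoluble library 3, with a median of 0.28. ZNF460 (1.56 ± 0.13) and ZNF497 (2.51 ± 0.29) rose, ZNF580 fell (-1.55 ± 0.22), and ZNF146 (0.66 ± 0.18), ZNF507 (0.14 ± 0.24) and ZNF121 (-0.37 ± 0.13) were not called. Of 38 kinetochore and mitosis genes, 2 rose and 12 fell, or 1 and 13 without insoluble library 3, with a median of -0.79. With all libraries the shares were 5.26% higher and 31.6% lower, against 13.8% and 15.9% of all genes. CENPF, a long kinetochore mRNA, was at 424, 486 and 359.5 CPM in soluble and at 1647, 1535 and 679 CPM in insoluble libraries (1.51 ± 0.19), and the short CKS2 was lowest (-2.27 ± 0.31). BIRC5 (-0.83 ± 0.19), TPX2 (-0.79 ± 0.12) and KIF23 (0.12 ± 0.21) were not called. Among the marker genes, SPARC (-1.03 ± 0.15) and VIM (-1.40 ± 0.19) fell and VWF rose (2.28 ± 0.25), and RUNX2 (0.17 ± 0.15), CDH1 (0.19 ± 0.19), EPCAM (-0.94 ± 0.33) and PECAM1 (-0.49 ± 0.29) were not called.

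The second question was where the distribution between fractions after NaAsO2 differed from that of unstressed cells. NORAD and the mRNAs ZCCHC14, LRRC58, POMK and ZFP36L1 were shifted towards the insoluble fraction, STIP1, COPG1, TKT and TARS1 were shifted towards the soluble one, and 19 of 43 immediate early genes were shifted towards the insoluble one. The interaction was called for 718 genes towards insoluble (4.06%) and 799 towards soluble (4.52%) in edgeR's quasi-likelihood test, or 677 and 474 without insoluble library 3. The split of these calls was 924 and 507 by library size alone, 782 and 726 with RLE factors, and 773 and 326 when only the compared groups entered the fit. The total of 1517 was 2400 or 2401 without a NaAsO2 library of lysate 1 and 994 without insoluble Ctrl library 1. The 2 sides share no library.

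In unstressed cells NORAD was at 284 ± 12.4 CPM (mean ± SD, n = 3) in soluble and at 219.9 ± 4.30 CPM in insoluble samples, a log2 fold change of -0.37. After NaAsO2 this was 1.84, so that the difference was 2.21 ± 0.16 (adjusted p = 1.75e-05), and 2.12 without insoluble library 3. LRRC58 went from 0.055 to 2.17, a difference of 2.11 ± 0.18. The differences were 1.88 ± 0.17 for POMK, a kinase of protein O-mannose, 1.80 ± 0.15 for ZCCHC14 and 1.65 ± 0.15 for ZFP36L1, an mRNA decay factor that binds AU-rich elements. All 4 lay between 1.67 and 2.08 without insoluble library 3.

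Towards the soluble fraction, genes with the smallest adjusted p were STIP1, a co-chaperone of HSP70 and HSP90 (-1.69 ± 0.16), COPG1 of the COPI coat (-1.73 ± 0.17), the transketolase TKT (-1.77 ± 0.17) and the threonyl-tRNA synthetase TARS1 (-1.75 ± 0.17). Of genes already described, FN1 was 2.40 in unstressed cells and 0.24 after NaAsO2, a difference of -2.16 ± 0.26 (adjusted p = 2.72e-04). Differences of the same sign were found for HSPA8 (-1.63 ± 0.22), EEF2 (-1.61 ± 0.21), PSMD1 (-1.70 ± 0.23), CLTC (-1.68 ± 0.32), HSP90AB1 (-1.40 ± 0.20), GAPDH (-1.33 ± 0.19) and RMRP (-1.59 ± 0.21), all with an adjusted p under 0.05. AHNAK (0.29 ± 0.26, adjusted p = 0.474) and PLEC (0.25 ± 0.36, adjusted p = 0.657) did not pass the test of the difference.

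**Figure D4:**
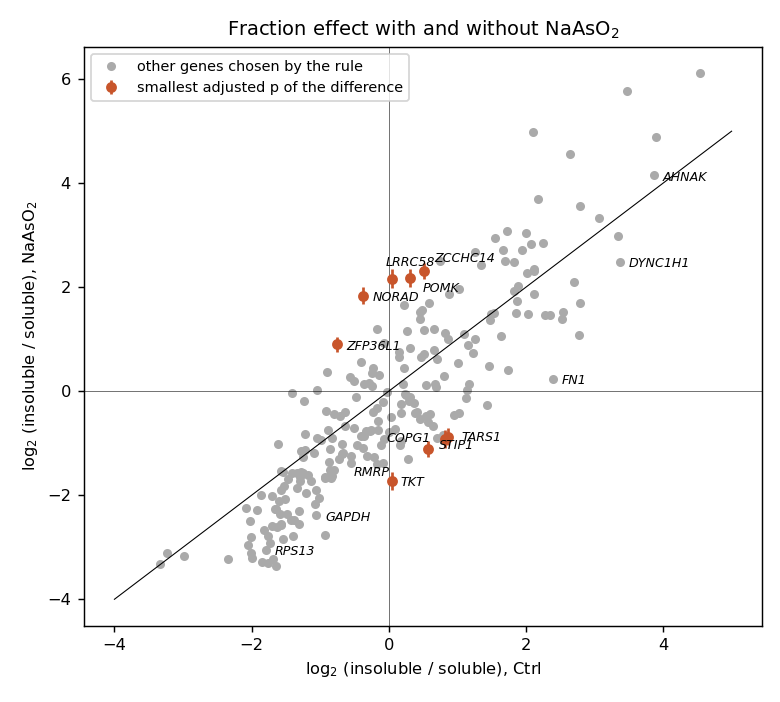
Log2 ratio of insoluble to soluble after NaAsO2 against that in unstressed cells for the genes chosen by the naming rule, with 9 genes of smallest adjusted p of the difference in orange (error bars, SE of the difference). The line marks equal values, and NORAD lies above it at -0.37 and 1.84 and TKT below it at 0.046 and -1.73.

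Of all 17666 tested genes, 4.06% had a called difference towards insoluble and 4.52% towards soluble. These counts of 718 and 799 became 677 and 474 without insoluble library 3. By list, 19 of 43 immediate early genes had a called difference towards insoluble and 0 towards soluble, or 16 and 0 without insoluble library 3. Their median was -0.41 in unstressed cells and 0.40 after NaAsO2. FOSL2 (1.43 ± 0.18), MCL1 (1.36 ± 0.23), EGR1 (1.27 ± 0.20) and ZFP36 (1.37 ± 0.23) were among them. In the other direction, called differences were found for 27 of 79 ribosomal protein genes, 30 of 78 respiratory chain genes, 11 of 32 proteasome genes and 7 of 27 heat shock genes, and for 18, 15, 3 and 3 without insoluble library 3. Zinc finger genes of chromosome 19 had 17 of 204 called towards insoluble and 0 towards soluble, and 30 and 0 without that library.

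The length of the 3′ untranslated region (3′ UTR), went along with this difference, with a Spearman's rho of 0.25 across 13444 genes against 0.27 for the length of the 5′ UTR, 0.20 for that of the transcript, 0.029 for coding length and 0.33 for GC content. By GC class the median difference went from -0.31 to 0.34, but from -0.036 to 0.030 without insoluble library 3. Of 3126 genes with a 3′ UTR of up to 500 nt, 0.608% were called towards insoluble and 9.92% towards soluble, and of 1904 genes with more than 4000 nt, 9.24% and 2.26%. Without insoluble library 3 these were 0.416% and 6.97% in the shortest and 10.5% and 0.735% in the longest class. Within coding lengths of 1000 to 2000 nt, the shares called towards insoluble were 0.617% and 9.07%, and those towards soluble 9.96% and 2.07%. In the main comparison the median went from -0.43 in the shortest to 0.32 in the longest class over all coding lengths, and in unstressed cells from -0.22 to 0.076, and within coding lengths of 1000 to 2000 nt from -0.37 to 0.18 and in unstressed cells from -0.12 to -0.099. A Pumilio motif in 3′ UTRs of 2000 to 4000 nt went with a median of 0.24, against 0.13 for those without one, or 0.34 and 0.10 without insoluble library 3. In those over 4000 nt the medians were 0.31 with and 0.34 without a motif, or 0.42 and 0.32 without insoluble library 3. In the class of 2000 to 4000 nt the median difference from unstressed cells was 0.16 with and 0.15 without a motif. Without insoluble library 3 these were 0.33 and 0.19. In the class over 4000 nt the median difference was 0.20 with and 0.26 without a motif, or 0.35 and 0.31 without that library.

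GC content has to be read with insoluble library 3 in mind. The median log2 fold change went from -0.42 in genes with up to 40% GC to 0.39 in those over 60%, but from -0.18 to 0.015 without that library. The medians of lysate 3 alone went from -0.96 to 1.06, those of lysate 1 from -0.096 to -0.034 and those of lysate 2 from -0.25 to 0.071. Spearman's rho with GC content was 0.25 with all libraries and 0.046 without that one.

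**Figure D5:**
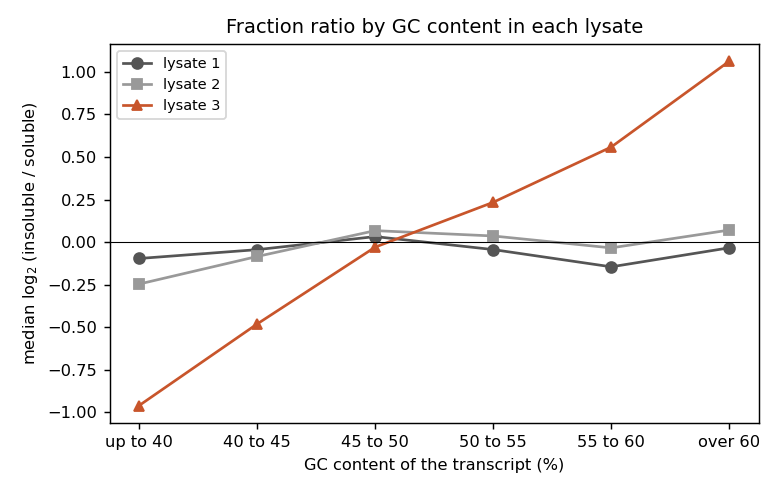
Median log2 ratio of insoluble to soluble by GC content of the transcript (%) in each NaAsO2 lysate. Lysate 3 climbs from -0.96 to 1.06, while lysates 1 and 2 stay between -0.25 and 0.071.

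The third question was whether RK-33 given before NaAsO2 changed the distribution. Few genes were called, 6 towards insoluble in NaAsO2 alone (0.0340%) and 2 towards soluble (0.0113%) in edgeR's quasi-likelihood test, while 1963 genes had an unadjusted p under 0.05. The 6 were the transcription factor EGR1 (1.52 ± 0.20), the zinc finger gene ZNF469 (2.19 ± 0.30), the decay factors ZFP36 (1.40 ± 0.21), ZFP36L1 (1.03 ± 0.15) and ZFP36L2 (1.25 ± 0.21), and the antiproliferative BTG2 (1.21 ± 0.20). ZFP36L2 is named here after its value was seen, since the count is small. EGR1 was at 324, 299 and 309 CPM in soluble and at 511, 434 and 290.3 CPM in insoluble libraries after NaAsO2, a log2 fold change of 0.37. In Combo it was at 1162 ± 87.2 CPM (mean ± SD, n = 3) in soluble and at 523 ± 45.8 CPM in insoluble samples, or -1.15. ZFP36 and BTG2 were at -0.043 and 0.021 after NaAsO2 and at -1.45 and -1.19 in Combo. ZFP36 was at 31.0, 34.6 and 30.5 CPM in soluble and at 33.2, 29.2 and 31.0 CPM in insoluble libraries after NaAsO2. In Combo it was at 127.7 ± 11.9 CPM in soluble and 46.8 ± 3.90 CPM in insoluble samples. BTG2 was at 39.3, 34.9 and 43.4 CPM and at 44.1, 41.6 and 33.6 CPM, and in Combo at 98.9 ± 13.2 and 43.0 ± 0.98 CPM. The lower ratios of EGR1, ZFP36 and BTG2 in Combo went with higher soluble levels. The 2 in the other direction were the splicing factor CWC15 (-1.81 ± 0.23) and WDR61 (-1.24 ± 0.16), which fell after NaAsO2 (-2.11 and -1.24) and were at -0.30 and -0.0025 in Combo. All 8 had an adjusted p of at most 0.00317 without insoluble library 3, when 21 genes were called. The count was 0 when only the compared groups entered the fit, 0 without Combo library 1 or 2 of either fraction, 76 without soluble Combo library 3 and 52 without insoluble Combo library 3, so it turned on single libraries. The difference of NORAD (1.84 after NaAsO2 and 1.16 in Combo) did not pass the test.

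Intron counts gave a second readout of the same lysates. Of 17406 genes that averaged 1 CPM or more over introns, 789 were higher in the insoluble fraction (4.53%) and 977 were lower (5.61%) in edgeR's quasi-likelihood test, or 593 and 936 without insoluble library 3. By library size alone the split was 354 and 1817. Long mRNAs that rose over exons and did not pass the test over introns included AHNAK (0.41, adjusted p = 0.162), NSD1 (0.18, adjusted p = 0.465) and DYNC1H1 (0.032, adjusted p = 0.929). Others passed this quasi-likelihood test over introns but missed the fold limit. They included RNF213 (0.86, adjusted p = 0.00260), HERC2 (0.49, adjusted p = 0.0143), TRIO (0.46, adjusted p = 0.0472) and ZCCHC14 (0.47, adjusted p = 0.0470). The median over introns was 0.29 for scaffold genes and 0.24 for large ubiquitin enzymes, against 0.0052 for genes tested over exons and introns. Of the 37 scaffold genes, 1 rose over introns, PLEC (1.56), a gene whose exon level was also highest in insoluble library 3. Of 61 ribosomal protein genes tested over introns, 27 fell and 1 rose, with a median of -0.96. Among the genes named in all of the above, the calls over exons of HK2, MCL1, CXCL8, EIF4G2, DYNC2LI1, DCTN1, DCTN4, CAPZA1 and XRCC6 were lost without insoluble library 3. Intron counts hold retained introns, unannotated exons and nuclear RNA alike.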

How the data were processed

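RNA was depleted of ribosomal RNA and sequenced from the soluble and insoluble cytoplasm of U2OS cells, with 4 treatments, 3 lysates each and 24 libraries. The authors aligned reads to GRCh38.p13 with STAR 2.7.2b, used SAMtools 1.2, and counted fragments with featureCounts 1.5.3 over GENCODE release 40 without regard to strand. The deposited values are raw counts per gene over exons and, for fragments that overlapped an intron by at least 25 bases, over introns. Because strand was not used, overlapping and antisense genes cannot be told apart. Spike-in RNAs were not used here, so all levels are relative.

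Counts were tested with edgeR 4.0.16 in R 4.3.3 (TMM factors, quasi-likelihood test, Benjamini-Hochberg adjustment) on all 24 libraries, with lysate as a block, 4 fraction effects and 8 residual degrees of freedom, on genes averaging 1 CPM or more. A gene was called at an adjusted p under 0.05 and a log2 fold change of at least 1 in size. SEs were the log2 fold change divided by the square root of the test's F. Interactions were differences of fraction effects. The fit was tested on simulated data. Pairing came from the methods, as both fractions of a number share a lysate. The deviations of same-numbered libraries from their group means correlated at 0.077, 0.0016 and 0.11. Lengths, GC content and motifs were taken from 1 transcript per gene of GENCODE release 44 on GRCh38.

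The 35 gene lists and the libraries compared were chosen with earlier results of these data known. Named genes were the 8 with the smallest adjusted p and the 8 with the largest change in each direction among called genes averaging 10 CPM or more. Of each list they were the 4 most abundant members and those with the highest and lowest change, of 5 short lists all tested members, and per interaction the 5 with the smallest adjusted p in each direction. Some genes that this rule names are not reported here. Alternatives were other scaling (RLE, library size alone), glmLRT, DESeq2 1.42.0, other filters and fold limits, no block, only the compared groups, a GC trend removed, 7SL genes left out, exon plus intron counts, and leaving out each library. Fits with 2 of these together were added after the data were seen. Sequences of gene starts are from RefSeq.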

Additional observations from a re-analysis of the deposited data

Results flagged for a closer look

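The fraction effect differed between NaAsO2 and unstressed cells, by the test of the interaction in edgeR, for 1517 genes. The difference in log2 fold change was 2.21 for NORAD, 2.11 for LRRC58, 1.88 for POMK, 1.80 for ZCCHC14 and 1.65 for ZFP36L1. In the other direction it was -1.77 for TKT, -1.75 for TARS1, -1.73 for COPG1 and -1.69 for STIP1.

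Between NaAsO2 alone and Combo the effect differed for 8 genes. The difference was 2.19 for ZNF469, 1.52 for EGR1, 1.40 for ZFP36, 1.21 for BTG2 and 1.03 for ZFP36L1, and -1.81 for CWC15 and -1.24 for WDR61.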

How the results depend on the processing

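The count of called genes in the exon comparison was 5242, and 901 with a fold limit of 2 on the log2 scale, 9654 with no fold limit and 3335 with a filter at 10 CPM, and it lay between 4838 and 5559 when 1 library was left out. With only the compared groups in the fit it was 4529, and the difference from Ctrl had 1099 called genes. For the difference from Ctrl, 1517 became 74 at a change of at least 2 and 3262 with no limit, and leaving out 1 library gave 994 (insoluble Ctrl library 1) to 2401 (insoluble NaAsO2 library 1), with 2400 without soluble NaAsO2 library 1. For the difference from Combo, 8 became 1 at a change of at least 2, 19 by library size alone, 66 with glmLRT, 42 with DESeq2, 85 with no low-count filter, 15 with a filter at 10 CPM, 0 with the compared groups only and 25 with the GC trend removed, and leaving out 1 library gave 0 to 76. For introns, 1766 became 338 at a change of at least 2, 3406 with no limit, 940 with a filter at 10 CPM and 1148 with the compared groups only. Leaving out 1 fraction library also drops its partner from the paired contrast. The cause of these shifts was not tested.

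Without the replicate block, the pairing by lysate was ignored, and the counts were 5413, 1683 and 26 for the exon comparison and the differences from Ctrl and Combo, and 1932 for introns. Without the block and without insoluble library 3, the difference from Combo had 53 called genes.

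Genes whose uncalled value changed sign are given with their log2 fold change under the alternative. With the setting DESeq2, it was ACTR1B 0.032. With the setting GC trend removed, it was BTG2 -0.016, CENPE 0.39, DDX3X 0.017, DYNC1LI2 0.011, G3BP1 0.32, HSPA1B -0.095, SLC30A1 0.14, XPOT 0.084. With the setting GC trend removed and no insoluble library 3, it was CENPE 0.54, CYTOR 0.032, DDX3X 0.28, G3BP1 0.26, HSPA1B -0.18, MRPL46 -0.62, PSMD1 0.071, SNHG5 -0.38, XPOT 0.17. With the setting RLE factors, it was ACTR1B 0.033. With the setting compared groups only, it was ACTR1B 0.023. With the setting exon plus intron counts, it was BTG2 -0.13, CDH1 -0.022, HSPA1B -0.017, MRPL46 -0.0037, PECAM1 0.21, SNHG5 -0.080. With the setting of a filter at 10 CPM, it was ACTR1B 0.056, G3BP1 0.010, ZFP36 0.020. With the setting no low-count filter, it was BTG2 -0.012, SNHG5 -0.016. With the setting no replicate block, it was ACTR1B 0.062, CENPE 0.032. With the setting no replicate block and no insoluble library 3, it was CENPE 0.40, CYTOR 0.032, DDX3X 0.18, G3BP1 0.096, HSPA1B -0.29, MRPL46 -0.64, SNHG5 -0.16, TUBB3 -0.0023, UBE2V1 0.016, XPOT 0.040. Leaving out 1 library gave these ranges over all 6 omissions: ACTR1B -0.35 to 0.27, ATF4 -0.57 to 0.018, BTG2 -0.11 to 0.21, CENPE -0.41 to 0.35, CYTOR -0.16 to 0.017, DCTN5 -0.047 to 0.33, DDX3X -0.55 to 0.19, FN1 -0.0063 to 0.42, G3BP1 -0.18 to 0.13, H2BC6 -0.82 to 0.093, HSPA1B -0.24 to 0.28, HSPA5 -0.034 to 0.25, KIF23 -0.15 to 0.58, MRPL46 -0.65 to 0.53, PSMD1 -0.53 to 0.018, RUNX2 -0.0051 to 0.40, SLC30A1 -0.47 to 0.071, SLC3A2 -0.46 to 0.12, SNHG5 -0.41 to 0.46, TFRC -0.061 to 0.37, TUBB3 -0.025 to 0.62, XPOT -0.38 to 0.093, ZFP36 -0.11 to 0.061, ZNF507 -0.17 to 0.64.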
